A study of Mus musculus with 17 samples.

Results

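The 8 genes described here are Saa1, Saa2, Saa3 and Saa4, which encode the serum amyloid A proteins, Lcn2 (lipocalin 2), Lrg1 (leucine-rich alpha-2-glycoprotein), and the pentraxin genes Crp (C-reactive protein) and Apcs (serum amyloid P component). Every probe carrying one of these symbols in the deposited table of log2 ratios was taken, which gave 10 of 41174 non-control probes, with 2 probes each for Saa1 and Saa4 and 1 for every other gene. The 10 probes were well above background in the liver channel on all 17 arrays, none was saturated, and all were among the 34650 probes tested, which represent 19359 genes. Where a gene had 2 probes, the brighter one in liver was used. The 8 genes were chosen by their log2 ratios in these arrays, with the difference between HFD+1B and chow mice in view, so that difference is given below as a description, without a test.

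Gene expression was measured in livers of 17 male mice, 1 liver per 2-color Agilent array. In the words used here, chow mice (n = 4, labeled Chow+maltose) ate chow and received isocaloric maltose by gavage, 1B mice (n = 4, Chow+binge) ate chow and received 1 gavage of ethanol at 5 g/kg (a binge), HFD mice (n = 4, HFD+maltose) ate a high-fat diet and received maltose, and HFD+1B mice (n = 5, HFD+binge) ate the high-fat diet and received the ethanol gavage. Each diet lasted 3 months, and the liver was collected within hours of gavage. The mice are labeled C57BL/6N, whereas the methods name C57BL/6J; no transgene or deletion was present in any group, and age at collection is not given in the sources used here. Each value is the log2 ratio of Cy5-labeled liver cDNA to a Cy3-labeled common reference of assorted mouse RNA, so 0 means the level of the reference, and the dyes were not swapped. In whole liver, fewer cells of a type and less RNA per cell cannot be told apart.

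Serum amyloid A proteins, pentraxins, and LRG1 are plasma proteins that hepatocytes secrete in the acute phase response, in which interleukin-6 acts through STAT3, interleukin-1 and tumor necrosis factor act through NF-κB, and C/EBP factors act on the same promoters. SAA1 and SAA2 travel on high-density lipoprotein, SAA3 is also made by macrophages and adipocytes, and SAA4 is the constitutive member of the family. LCN2 binds bacterial siderophores and so withholds iron, and it is stored in neutrophil granules as well as secreted by hepatocytes. In the mouse, serum amyloid P component is the pentraxin that responds to inflammation, and C-reactive protein is a minor one.

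The probes and the promoters of the genes that moved together are shown first, because the 3 inducible Saa genes are close relatives and a signal could be shared between their probes. The 60-base probes below, read from the deposited files, are those for Saa1 (the dimmer of its 2 probes), Saa3, and Lcn2.
Saa1 probe: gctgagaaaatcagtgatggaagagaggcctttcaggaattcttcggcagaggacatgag
Saa3 probe: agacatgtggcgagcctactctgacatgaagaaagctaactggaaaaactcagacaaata
Lcn2 probe: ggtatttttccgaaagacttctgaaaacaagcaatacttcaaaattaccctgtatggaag
No pair of Saa probes shared a run of more than 8 bases, the longest run being between this Saa3 probe and the brighter Saa1 probe. That run compares probes with each other and not with transcripts, so it cannot show whether a signal is shared. Transcript sequences of Saa1, Saa2, and Saa3 were not used here, so hybridization of any of them to another gene's probe was not tested. RefSeq lists Saa1 and Saa2 each as a synonym of the other.

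The 250 bases before the start that RefSeq gives for Saa1, Saa2, Saa3, and Lcn2 (build GRCm38.p6, written 5′ to 3′ on the strand of the gene) are shown because these 4 genes had the largest differences between HFD+1B and chow. Capitals mark matches, on either strand, to the C/EBP motif TTGCNNAA.
Saa1 promoter, chr7:46742981-46743230, minus strand: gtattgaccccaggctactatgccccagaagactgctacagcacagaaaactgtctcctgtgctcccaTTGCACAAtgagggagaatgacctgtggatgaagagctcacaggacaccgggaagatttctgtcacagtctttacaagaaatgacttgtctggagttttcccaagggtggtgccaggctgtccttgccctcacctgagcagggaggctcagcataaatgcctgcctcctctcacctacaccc
Saa2 promoter, chr7:46751583-46751832, plus strand: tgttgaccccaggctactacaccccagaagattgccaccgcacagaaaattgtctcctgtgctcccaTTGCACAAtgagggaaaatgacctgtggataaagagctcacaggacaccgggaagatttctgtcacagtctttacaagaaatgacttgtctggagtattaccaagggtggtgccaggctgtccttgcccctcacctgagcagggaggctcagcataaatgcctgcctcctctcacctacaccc
Saa3 promoter, chr7:46715677-46715926, minus strand: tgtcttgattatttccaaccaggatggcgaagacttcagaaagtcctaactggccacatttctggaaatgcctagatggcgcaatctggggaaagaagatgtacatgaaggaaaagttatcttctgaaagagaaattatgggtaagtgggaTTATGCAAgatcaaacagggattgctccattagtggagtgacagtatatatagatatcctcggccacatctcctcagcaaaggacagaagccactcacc
Lcn2 promoter, chr2:32387740-32387989, minus strand: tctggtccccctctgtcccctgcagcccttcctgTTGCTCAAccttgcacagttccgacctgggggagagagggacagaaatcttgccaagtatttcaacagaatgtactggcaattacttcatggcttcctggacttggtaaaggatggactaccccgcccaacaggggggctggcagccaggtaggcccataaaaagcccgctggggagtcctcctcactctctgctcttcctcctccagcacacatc
Saa1 and Saa2, on opposite strands, were 94.8% identical over these windows, whereas no other pair of the 8 promoters was more than 53.9% identical. The C/EBP motif occurred in 5 of the 8 windows (1 match each in Saa1, Saa2, Saa3, and Lcn2, and 2 in Saa4) and in 9.56% of all 32851 RefSeq windows of this length. The STAT motif TTCNNNGAA occurred in 1 of the 8, Apcs, and in 7.02% of all windows, and the NF-κB motif GGG, any 2 bases, TTTCC occurred in 0 of the 8 and in 1.41% of all windows. No window of the 8 held matches of more than 1 of the 3 motifs, and a match is a match of letters, not a site of binding.

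Before the group comparisons, 2 mice must be named, because their values of Saa1, Saa2, and Saa3 lay with another group. HFD mouse 3 had the highest value of its group for Saa1, Saa2, Saa3, Lcn2, Lrg1, Crp, and Apcs. The 1B mouse 3 had the lowest value of its group for Saa1, Saa2, Saa3, Saa4, Lcn2, Lrg1, and Apcs. Values without these mice are given beside the main differences. Both mice were picked by their values in these genes, and leaving out an extreme value narrows the spread. The p-values of those fits are therefore descriptions and not added evidence. The median Cy5 signal over background was 43 to 138.5 intensity units over the 17 arrays, and 74.2% to 86.1% of probes were well above background. The 17 arrays came from 5 slides, with 3 or 4 groups on each, and differences within slides are given for the main results.

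Lcn2 rose from chow to 1B and HFD and again to HFD+1B. The log2 ratio of Lcn2 was -4.30, -4.68, -5.93, and -5.89 in the 4 chow mice. It was -0.53, -1.53, -3.94, and -1.64 in the 1B mice and -2.99, -3.19, 0.71, and -3.25 in the HFD mice. In the 5 HFD+1B mice it was 1.55, 0.32, 1.14, 1.13, and 0.73. All HFD+1B mice were above all chow and all 1B mice, and they overlapped with HFD only through HFD mouse 3. All 1B and all HFD mice were above all chow mice. The group means were -5.20 ± 0.83 (SD, n = 4), -1.91 ± 1.44 (n = 4), -2.18 ± 1.93 (n = 4), and 0.97 ± 0.47 (n = 5) in chow, 1B, HFD, and HFD+1B. The 1B and HFD values overlapped.

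In differences between groups, Lcn2 was 9.78-fold higher in 1B than in chow (log2 difference 3.29 ± 0.76 SE, limma adjusted p = 0.0191) and 8.11-fold higher in HFD than in chow (3.02 ± 0.76, adjusted p = 0.0181). HFD+1B exceeded HFD 8.90-fold (3.15 ± 0.72, limma adjusted p = 0.00596) and 1B 7.38-fold (2.88 ± 0.72, adjusted p = 0.0157). These p-values are adjusted over all 34650 probes, and because the contrasts share arrays with the difference between HFD+1B and chow, they are not independent evidence for the choice of the gene. The difference between HFD+1B and chow itself was 6.17 ± 0.72 on the log2 scale, or 72.2-fold. The interaction, (HFD+1B minus HFD) minus (1B minus chow), was -0.14 (95% interval -2.34 to 2.07, limma adjusted p = 0.962). That interval holds both a more than 4-fold gain and a more than 4-fold loss, so the arrays did not settle whether the joint effect differed from the sum.

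Within slides, Lcn2 was above 1B in HFD+1B on 4 of 4 slides (2.09 to 4.26 on the log2 scale) and higher in 1B than in chow on 3 of 3 (1.99 to 3.77). HFD+1B exceeded HFD on 4 of 4 slides, by 4.54, 3.92, and 4.38 on slides 1, 2, and 5 but by only 0.43 on slide 4, which held HFD mouse 3. HFD exceeded chow on 3 of 3 slides, by 1.32, 1.49, and 6.60, the last on slide 4. Without HFD mouse 3, Lcn2 differed by 2.06 in HFD minus chow and by 4.12 in HFD+1B minus HFD, and both were called (limma adjusted p = 0.044 and 0.000174). With the slide as a block all 4 calls of Lcn2 held (adjusted p = 0.0112 and 0.0249 for 1B and HFD against chow, and 0.0029 and 0.0164 for HFD+1B against HFD and 1B). Left out 1 at a time, no array ended the call of HFD+1B against HFD (adjusted p = 0.00017 to 0.0278). The call of HFD+1B against 1B was lost only without 1B mouse 3 (2.21, adjusted p = 0.0679). The call of 1B against chow was lost without chow mouse 3 or 4 or without 1B mouse 1, 2, or 4 (highest adjusted p 0.0815), and that of HFD against chow without chow mouse 3 or 4 (highest adjusted p 0.0597). In the liver channel alone, HFD+1B against 1B gave 2.51 (adjusted p = 0.0573).

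**Figure D1:**
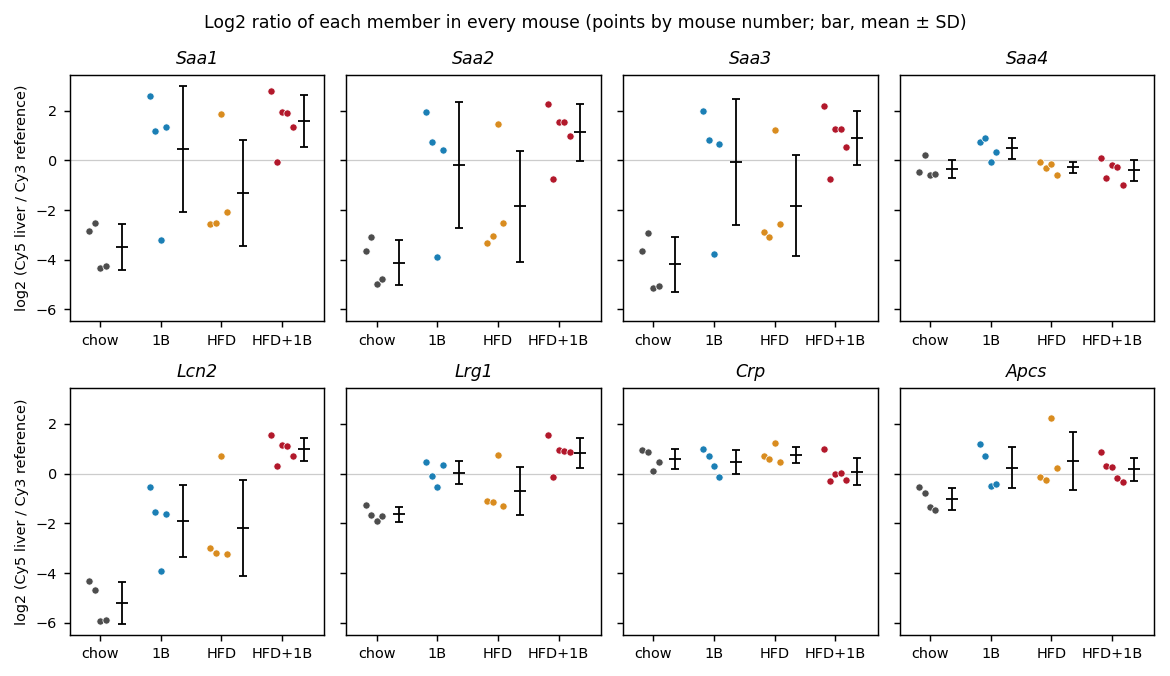
Log2 ratio of liver (Cy5) to reference (Cy3) on the vertical axis for each of the 8 genes in the 17 mice, grouped as chow, 1B, HFD, and HFD+1B along the horizontal axis; points run from mouse 1 at the left of each group, and black bars show the mean ± SD. Saa1, Saa2, Saa3, Lcn2, and Lrg1 share the high HFD mouse 3, and Saa1, Saa2, Saa3, and Lcn2 the low 1B mouse 3, whereas Saa4 runs from -0.99 to 0.90 and Crp from -0.30 to 1.22.

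Saa1 and Saa3 rose with the binge in chow-fed mice, Saa2 differed by as much but missed the threshold, and none of the 3 separated HFD+1B from 1B. The Saa1 log2 ratio was -2.86, -2.53, -4.35, and -4.24 for the chow mice. The 1B mice stood at 2.57, 1.19, -3.22, and 1.33, and the HFD mice at -2.58, -2.51, 1.85, and -2.06. The HFD+1B mice stood at 2.80, -0.07, 1.94, 1.91, and 1.33. Thus 3 of 4 1B mice and HFD mouse 3 lay within the HFD+1B range, and 1B mouse 3 lay within the chow range. In the order chow, 1B, HFD, and HFD+1B, the Saa2 values ran from -4.96 to -3.10, from -3.88 to 1.93, from -3.32 to 1.47, and from -0.73 to 2.28. Those of Saa3 ran from -5.15 to -2.91, from -3.78 to 1.97, from -3.07 to 1.21, and from -0.73 to 2.20. The means of Saa1 were -3.49 ± 0.93, 0.47 ± 2.54, -1.32 ± 2.13, and 1.58 ± 1.06 (SD), and the neighbors in the order chow, HFD, 1B, HFD+1B overlapped at every step.

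Compared with chow, Saa1 was 15.6-fold higher in 1B (log2 difference 3.96 ± 1.06 SE, limma adjusted p = 0.0458) and Saa3 17.2-fold (4.11 ± 1.07, adjusted p = 0.0372), and Saa2 differed by 3.92 ± 1.09 (adjusted p = 0.0541). The second Saa1 probe gave 4.00 (limma adjusted p = 0.039). With the slide as a block Saa2 was called as well (4.17, limma adjusted p = 0.0213). Without 1B mouse 3, picked by its low values, the differences of Saa1, Saa2, and Saa3 were 5.19, 5.15, and 5.34. All 3 were then called (limma adjusted p = 0.0028, 0.00418, and 0.00232). In HFD minus chow the 3 genes differed by 2.17 to 2.36 on the log2 scale and none was called (adjusted p = 0.171 to 0.210). Without HFD mouse 3 these differences were 1.11 for Saa1, 1.16 for Saa2, and 1.35 for Saa3 (adjusted p = 0.481 to 0.566). Within slides, Saa1 differed between HFD and chow by 0.28, 0.02, and 6.09 on slides 1, 2, and 4, the last being the slide of that mouse. In HFD+1B minus HFD the differences were 2.91 ± 1.01 for Saa1, 2.98 ± 1.03 for Saa2, and 2.73 ± 1.01 for Saa3, outside the threshold (limma adjusted p = 0.0543, 0.0539, and 0.0698). Without HFD mouse 3, picked by its high values, they were 3.96, 4.09, and 3.74 and all 3 were called (limma adjusted p = 0.00938, 0.00839, and 0.0147). With all mice and the slide as a block they were 3.45, 3.54, and 3.28 and also called (limma adjusted p = 0.0114, 0.0112, and 0.0145). Within slides, Saa1 differed by 5.38, 3.84, 0.09, and 3.97 on slides 1, 2, 4, and 5. In HFD+1B minus 1B the differences were 0.99 to 1.32 (adjusted p = 0.534 to 0.669). Without 1B mouse 3, Saa1 there gave -0.11.

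The call of Saa1 in 1B minus chow was lost in 12 of the 17 fits that left out an array (adjusted p up to 0.178) and that of Saa3 in 6 of 17 (up to 0.149). As a description, the 3 genes were 5.08, 5.24, and 5.09 log2 units higher in HFD+1B than in chow (SE 1.01 to 1.03), or 33.8-, 37.9-, and 34.1-fold. The interaction was -1.05 for Saa1, -0.94 for Saa2, and -1.38 for Saa3 (limma adjusted p = 0.660 to 0.785).

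Lcn2 minus the mean of the 3 inducible Saa genes sets Lcn2 beside those genes in each mouse. This value was -2.69, -2.44, -0.31, and -2.45 in 1B mice and -0.87, 0.83, -0.45, -0.44, and -0.22 in HFD+1B mice. Only 1B mouse 3, the mouse with low Saa values, reached into the HFD+1B range. The group means differed by 1.74, and by 1.48 to 2.30 over other ways of making the log2 ratios and without 1 mouse at a time. In HFD mice the value was -0.06, -0.32, -0.80, and -0.87, above all 4 chow mice at -0.93, -1.83, -1.11, and -1.19. In exact permutation tests, neither HFD+1B minus 1B nor HFD minus chow passed after adjustment over 8 such tests (adjusted p = 0.159 for each). This combination was formed after the values were seen and is given as a description.

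**Figure D2:**
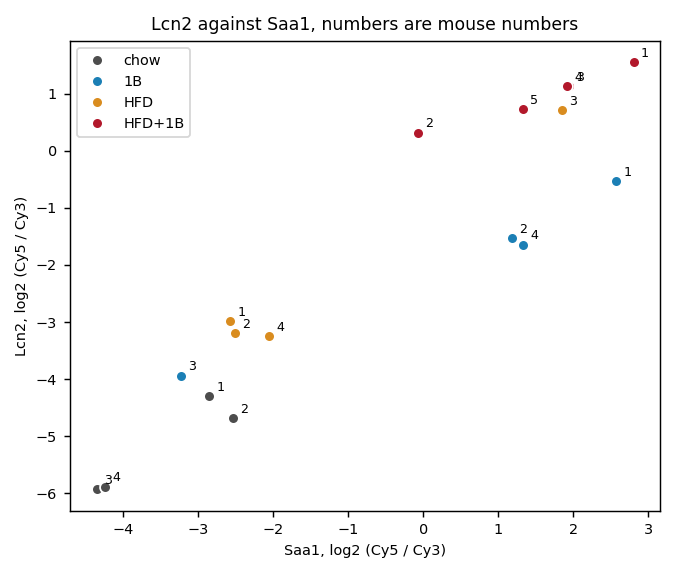
Log2 ratio of Lcn2 (vertical) against that of Saa1 (horizontal) in the 17 mice, colored by group, with the mouse number beside each point. At Saa1 values between 1.19 and 2.80, the 1B mice lie below the HFD+1B mice in Lcn2, which is -1.64 to -0.53 in those 1B mice and 0.73 to 1.55 in the HFD+1B mice of the same Saa1 range.

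The 2 channels moved differently for the Saa genes and for Lcn2, which bears on the size of every Saa ratio. The unnormalized Cy5 signal of Saa1 was 7536 to 23592 intensity units in chow and 94326.5 to 152798 in HFD+1B mice. The Cy3 signal of Saa1, which comes from the same reference RNA on every array, was 180364 to 199677 in chow but 25003 to 101197 in HFD+1B, without overlap. For Lcn2 the Cy3 signal was 14413 to 17464 in chow and 9423 to 16025 in HFD+1B, while Cy5 went from 162 to 400.5 to 11355.5 to 24608. After normalization of each channel, the Cy3 signal of Saa1, Saa2, and Saa3 differed between HFD+1B and chow by -1.51, -1.06, and -0.85 log2 units, that of Lrg1 by -0.35, and that of Lcn2 by -0.21. Among all genes tested, 0.0568% had a Cy3 signal at least 2-fold lower in that contrast. In Cy5 alone, the difference between HFD+1B and chow was 3.55 for Saa1, 4.02 for Saa2, 4.01 for Saa3, and 5.76 for Lcn2, against 5.08, 5.24, 5.09, and 6.17 in the ratio. Whether the bright liver signal of the Saa probes lowered the reference signal on the same spot was not tested. In Cy5 alone, Saa1 and Saa3 were no longer called in 1B minus chow (2.69 and 3.21, limma adjusted p = 0.0953 and 0.0894).

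Lrg1 rose with the binge on either diet. Its log2 ratio was -1.25, -1.68, -1.92, and -1.72 for the chow mice and 0.46, -0.10, -0.53, and 0.35 for the 1B mice. The HFD mice had -1.10, -1.14, 0.73, and -1.31, and the HFD+1B mice had 1.57, -0.13, 0.96, 0.93, and 0.87. All 1B mice were above all chow mice, and HFD+1B mice were above all HFD mice other than mouse 3. Lrg1 was 3.21-fold higher in 1B than in chow (1.68 ± 0.39 SE on the log2 scale, limma adjusted p = 0.0178) and 2.91-fold higher when HFD+1B was set against HFD (1.54 ± 0.37, adjusted p = 0.0074), and the latter call held in 17 of 17 fits without 1 array. Without HFD mouse 3 the difference between HFD+1B and HFD was 2.02, and in Cy5 alone it was 0.88 (limma adjusted p = 0.000269 and 0.0479). The former was lost without chow mouse 3 or 4 or 1B mouse 1 or 4 (highest adjusted p 0.0695). HFD minus chow was 0.94 (adjusted p = 0.131), and 0.46 without HFD mouse 3 (0.407), and HFD+1B minus 1B was 0.80 (adjusted p = 0.202). In Cy5 alone, HFD minus chow was 1.18 for Lrg1 and was called (limma adjusted p = 0.017). Within slides the binge effect was 1.39 to 1.70 in chow-fed mice on 3 of 3 slides, and 0.23 to 2.66 in HFD-fed mice on 4 of 4, the lowest again on slide 4.

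Of the pentraxins, Apcs was lowest in chow and Crp differed little. The log2 ratio of Apcs was -0.54, -0.79, -1.35, and -1.45 for the chow mice and 1.17, 0.73, -0.49, and -0.42 for the 1B mice. The HFD mice had -0.13, -0.26, 2.26, and 0.21, and the HFD+1B mice 0.86, 0.30, 0.25, -0.18, and -0.32. All mice of the 3 other groups were above all chow mice. Apcs was 2.93-fold higher in HFD than in chow (1.55 ± 0.47 SE, limma adjusted p = 0.0438), which fell to 0.97 (adjusted p = 0.135) without HFD mouse 3, was 1.28 (0.176) in Cy5 alone, and was called in 9 of 17 fits without 1 array. It was 1.28 higher in 1B than in chow (adjusted p = 0.182), and HFD+1B minus HFD was -0.34 (adjusted p = 0.655). Crp was between -0.30 and 1.22 in all 17 mice, and no contrast of it passed, the nearest being HFD+1B minus HFD at -0.66 ± 0.27 (adjusted p = 0.0963). Without HFD+1B mouse 1, the highest of its group, that difference was -0.88 (limma adjusted p = 0.0141), the only call in 17 fits without 1 array.

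Saa4, the constitutive member of its family, had log2 ratios of -0.45, 0.21, -0.60, and -0.55 for the chow mice and 0.75, 0.90, -0.07, and 0.33 for the 1B mice. The HFD mice had -0.08, -0.31, -0.15, and -0.59, and the HFD+1B mice 0.10, -0.70, -0.19, -0.25, and -0.99, so the 1B mice were above all HFD mice and overlapped with the other groups. It was 1.85-fold lower in HFD+1B than in 1B (-0.88 ± 0.23 SE, limma adjusted p = 0.0185). That call was lost without 1B mouse 1 or 2 (adjusted p = 0.0669 and 0.0737). The second Saa4 probe, which lacked a value in 3 mice because of outlier spots, gave -0.62 in this contrast (adjusted p = 0.0624) and 0.11 in 1B minus chow, where the brighter probe gave 0.82 (adjusted p = 0.913 and 0.0698, the latter 0.0481 with the slide as a block), and the sizes from the 2 probes differed.

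Counted over the 8 genes, 4 were called higher and 0 lower in 1B minus chow at a limma adjusted p of 0.05 or less, where 4.14% of all genes tested were called in either direction and 2.09% higher. In HFD minus chow 2 were called higher (background 11% in either direction, 4.49% higher). In HFD+1B minus HFD 2 were called higher (background 19.4%, 11% higher), and in HFD+1B minus 1B 1 higher and 1 lower (background 11.4%, with 6.27% higher and 5.14% lower). In the interaction 0 of 8 were called by limma (background 4.39%, 2.67% higher), and 2 had an unadjusted p of 0.05 or less (Saa4 at -0.95 and Apcs at -1.62), beside 20.4% of all genes. The interactions of Lcn2 and Lrg1 changed sign with median centring (0.187 and 0.265), and without HFD mouse 3 they were 0.83 and 0.34, that of Saa2 was 0.16, and none was called. The median difference of the 8 genes was 2.49, 1.86, 2.14, and 0.89 in the first 4 contrasts, and -0.95 in the interaction, while the median of all genes tested was between -0.01 and 0.01 in each. Groups did not overlap, with the first group higher, for 3 genes in 1B minus chow, 2 in HFD minus chow, 0 in HFD+1B minus HFD, and 1 in HFD+1B minus 1B, and 6.14%, 9.02%, 8.32%, and 5.67% of all genes did the same. Under a rule of at least 2-fold with an unadjusted limma p of 0.05 or less, 6, 3, 5, and 1 of the 8 passed in the first 4 contrasts and 1 in the interaction, beside 1.06%, 1.93%, 2.11%, 1.91%, and 2.25% of all genes.

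Left out 1 at a time, arrays moved the count to 0 to 6 in 1B minus chow. There it was 0 without chow mouse 3 or 4 or 1B mouse 1 or 4, 1 without 1B mouse 2, and 2 without chow mouse 1. In HFD minus chow it was 0 without chow mouse 3 or 4, and 1 without chow mouse 1 or 2, HFD mouse 3 or 4, or HFD+1B mouse 2 or 3. In HFD+1B minus HFD it was 5 without HFD mouse 3 or 1B mouse 3, and 4 without 1B mouse 1 or HFD+1B mouse 2, and in HFD+1B minus 1B it was 1 without 1B mouse 1, 2, or 3.

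**Figure D3:**
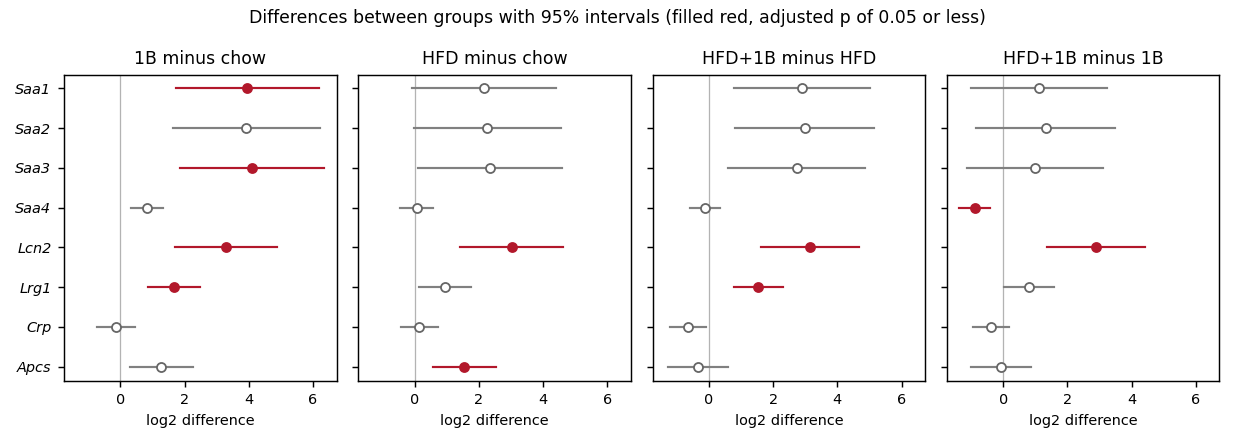
Log2 difference between groups on the horizontal axis for each gene, with the 95% interval as a line, in 4 contrasts; filled red points are called by limma at the 0.05 threshold. Lcn2 is the gene called in all 4, at 3.29, 3.02, 3.15, and 2.88, and the intervals of Saa1, Saa2, and Saa3 are the widest.

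Saa1, Saa2, and Saa3 ran nearly in parallel over the 17 mice, with Pearson's r of 0.996 to 0.998, and of 0.994 to 0.997 for deviations from the group means. Lcn2 correlated with Saa1 at 0.931 and with Lrg1 at 0.949 (0.954 and 0.881 within groups). These are descriptions over arrays that share the reference and the slides, and binding of a Saa transcript to another Saa gene's probe was not tested. Nearest genes were sought among 15361 genes, leaving out the 8 themselves. Each of these was well above background in the liver channel, and had a value, on all 17 arrays. Genes near background on any array, such as the neutrophil marker S100a8, were thus not ranked. Those nearest to Lcn2 over the 17 mice were Hp (haptoglobin, r = 0.978), Litaf (0.967), Tnfrsf1a (a tumor necrosis factor receptor, 0.956), Plscr1 (0.953), and Nek6 (0.951). Nearest to Saa1, Saa2, and Saa3 were in each case Serpina3n (an acute phase protease inhibitor, r = 0.975 to 0.977), Fgg (fibrinogen gamma chain, 0.966 to 0.972), and Ifitm2 (0.943 to 0.948), and to Lrg1 Serpina3n (0.973), Fgg (0.969), and Mt1 (0.955). The nearest genes to Saa4 were Slc17a3 (0.833), Cyp2c70 (0.821), and Brix1 (0.820), and genes near to Crp included Mbl1 (0.875) and Derl3 (0.841). For Apcs they were a gene whose symbol the deposited table holds in the form of a date, Cyb561 (0.841), and Lrrc59 (0.839).

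The rest of the acute phase pathway was read from lists of its ligands, receptors, factors, inhibitors, and targets. In the cytokine list, 1 of 9 genes tested was called higher in HFD+1B than in HFD and 0 lower. This was Cxcl1, a neutrophil chemokine and not among the inducing cytokines named above (1.72 ± 0.39 SE, limma adjusted p = 0.0057). Il6 was above background on 4 arrays only, and Il1b and Tnf gave 0.17 and 0.23 (adjusted p = 0.19 and 0.14). Csf3 and Il17a were not well above background. Of the receptors, 5 of 15 were called higher and 1 lower, among them Cd14, the lipopolysaccharide co-receptor (2.75, adjusted p = 0.00091), Il1r1, the interleukin-1 receptor (1.78, 0.0011), Il6ra (0.81, 0.021), and Tnfrsf1b (0.74, 0.0045). Of the transcription factors, 8 of 14 were called higher and 1 lower. Stat3 differed by 1.40 (adjusted p = 1.8e-05), Cebpb by 1.30 (0.00054), Cebpd by 0.99 (0.0016), and Junb by 0.75 (0.0022). Over 13 other ways of processing, Junb differed by 0.27 to 1.33 and lost its call in 2 (limma adjusted p up to 0.642). Of the feedback inhibitors, 5 of 13 were called higher and 0 lower, with Bcl3 at 1.29 (0.0013), Zfp36, which destabilizes cytokine mRNA, at 1.23 (0.003), and Socs3, which dampens STAT3 signaling, at 1.01 (0.0024). Over all genes, 11% were called higher in this contrast.

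A positive interaction was called for 3 of these genes and for 0 of the 8. The limma adjusted p of the interaction was 0.0024 for Cebpb (2.11), 0.0063 for Zfp36 (2.14), and 0.044 for Nfkbia (0.82). In the transcription factor list 1 of 14 had such a call, and in the feedback inhibitor list 2 of 13, beside 2.67% of all genes called higher. The call of Nfkbia was lost in 4 of 13 other ways of processing (adjusted p up to 0.151), whereas those of Cebpb and Zfp36 held in all 13. Cd14 (2.41, adjusted p = 0.0566) and Tnfrsf1b (0.84, 0.0523) missed the threshold for a positive interaction and passed it in 8 of the 13 each. The difference 1B minus chow was -0.81 for Cebpb and -0.90 for Zfp36 (adjusted p = 0.051 and 0.076), where Lcn2, Saa1, Saa3, and Lrg1 were called higher.

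Of 25 other positive acute phase genes tested, 10 were called higher and 2 lower in HFD+1B minus HFD, with a median of 0.82. Over all genes tested, 11% were called higher in this contrast and 19.4% in either direction. Named by size, these were the metallothioneins Mt2 (4.53, limma adjusted p = 7.1e-05) and Mt1 (3.99, 0.00027), which bind zinc, Fgb (fibrinogen beta chain, 1.64, 0.011), and Serpina3n (1.58, 0.023). Over 13 other ways of processing, Fgb differed by 0.50 to 1.90 and lost its call in 1 (limma adjusted p up to 0.152). Serpina3n lost its call in 1 of the 13 (up to 0.115) and was called in 12 of 17 fits without 1 array. Of 10 negative acute phase genes, whose plasma proteins fall in inflammation, 3 were called higher and 1 lower. They moved both ways, and Ahsg was 0.88 higher (0.0013), Gc 0.31 higher (0.038), and Apoa1 lower, at -0.61 (0.014), and Itih2 had 0.45 (0.031). In Cy5 alone Ahsg and Gc changed sign, to -0.34 and -0.39. Serpina6, which encodes corticosteroid-binding globulin, had an interaction of 1.71 (0.025) and was lower in 1B than in chow, at -2.26 (0.00018). Of 15 receptors of the proteins these 8 genes encode, 2 were called higher and 0 lower, which is near the share of all genes. These were Tgfbr2 (1.12, 0.0001) and Tgfbr1 (0.44, 0.017), which take part in LRG1 signaling, and Scarb1, a receptor of high-density lipoprotein and SAA, had an interaction of 0.55 (0.035).

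**Figure D4:**
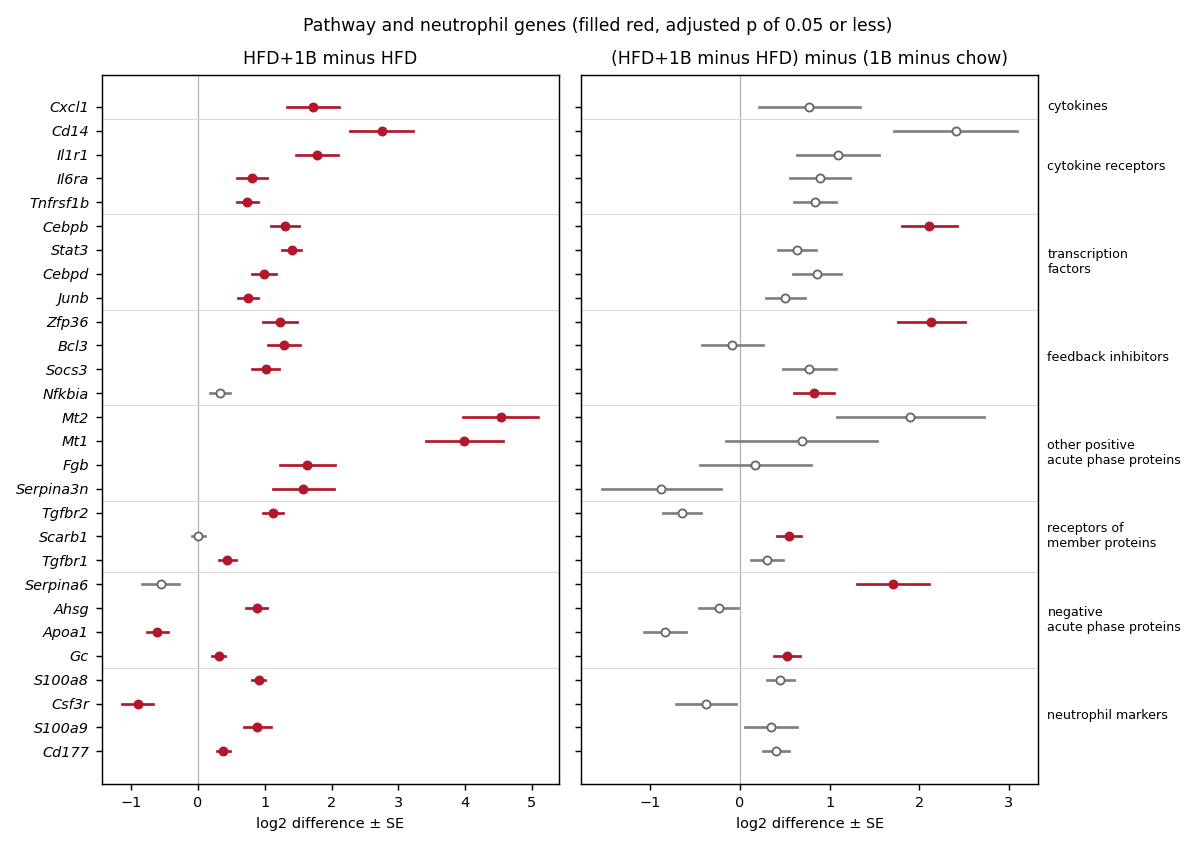
Log2 difference with its SE (horizontal axis) of the pathway and neutrophil genes named by size, for HFD+1B minus HFD on the left and for the interaction on the right; filled red points have a limma adjusted p of 0.05 or less. On the left most genes lie to the right of 0, up to 4.53 for Mt2, and on the right Cebpb and Zfp36 reach 2.11 and 2.14. The genes were selected for a call in either of these contrasts, so their distance from 0 follows from that choice and does not describe the full lists.

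LCN2 and LRG1 are also stored in neutrophils, so markers of other cells were read beside them. Of 21 neutrophil markers tested, 3 were called higher and 1 lower in HFD+1B minus HFD, with a median of -0.04, and 11% of all genes were called higher there. S100a8 differed by 0.91 (limma adjusted p = 3.4e-05), S100a9 by 0.89 (0.0055), and Cd177 by 0.38 (0.012), and Csf3r by -0.90 (0.012). S100a8 was above background on 12 of 17 arrays and in none of the chow mice, and the granule genes Mpo (0.19, 0.32), Elane (0.01, 0.97), and Ngp (0.04, 0.9) were not called. No probe carried the symbol Ly6g. The mean log2 ratio of the neutrophil list per mouse was -0.01 to 0.18, -0.05 to 0.23, -0.01 to 0.33, and 0.11 to 0.29 for chow, 1B, HFD, and HFD+1B. S100a8, like Lcn2, was lowest in chow and highest in HFD+1B, with means of -1.06 ± 0.04, -0.60 ± 0.19, -0.51 ± 0.17, and 0.40 ± 0.13 (SD), of which the chow mean is only a bound. Over 12 other ways of processing, its difference in HFD+1B minus HFD was 0.91 to 2.38, so its size depended on the processing. It is 1 of 21 markers, whose median there was -0.04. By contrast, the brightest of the list, Wfdc21, had a difference of -0.24 in HFD+1B minus HFD. In 1B minus chow, HFD minus chow, and HFD+1B minus 1B, 1, 3, and 2 of the 21 were called higher and 0, 0, and 1 lower, beside 2.09%, 4.49%, and 6.27% of all genes called higher. The part of neutrophils in the Lcn2 and Lrg1 values was not tested. Of 14 macrophage and Kupffer cell markers the lowest limma adjusted p in HFD+1B minus HFD was 0.0624 (Itgax), and the mean log2 ratio of the list was -0.44 to 0.11, -0.33 to -0.06, 0.06 to 0.23, and -0.01 to 0.52 for chow, 1B, HFD, and HFD+1B, with the brightest, Cd5l, at -0.24 in the contrast. In HFD minus chow and in HFD+1B minus 1B, 3 and 3 of the 14 were called higher and 0 lower, and of the 10 stellate cell markers 4 and 3 were called higher and 0 lower. The part of these cells in the differences of the 8 genes between diets was not tested. Of 9 adipocyte markers Fabp4 was called (0.67, adjusted p = 0.019). Of 10 stellate cell markers Des (0.32) and Hgf (0.41) were called, and the brightest, Ecm1, gave -0.08. Of 8 cholangiocyte markers Krt7 (0.56), Sox9 (0.87), and Cftr (0.59) were called. Of 8 endothelial markers Lyve1 (1.82) and Cdh5 (0.47) were called higher and Stab2 (-0.49), Clec4g (-0.80), and Kdr (-1.23) lower, and the brightest, Stab1, gave -0.24. All 11 hepatocyte markers with a probe were above background on all arrays. Of these, Tat (tyrosine aminotransferase, 2.79), Apob (2.28), and Fgb were called higher and Apoa1 and Cyp2e1 (-0.81) lower, while the brightest, Alb (albumin), gave 0.24 (0.23).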

How the data were processed

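Liver RNA of 17 mice was measured on 2-color Agilent arrays, 1 mouse per array, with the groups taken from the sample labels. Per the file headers, the deposited intensity values are median spot and background signals of each channel from Agilent Feature Extraction 11.5.1.1, and the authors' deposited log2 ratios are those of its processed signals, from which they differ by at most 2.74e-06. The flags for background, saturation, and outliers also come from the deposited scanner files. The design was annotated on build mm9.

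Here, in R 4.3.3 with limma 3.58.1, median signals were background-corrected (normexp, offset 50), outlier spots were left out (3424 missing values), and each array was normalized by loess. Probes well above background in Cy5 on at least 4 arrays (34650) were fitted as 4 group means over 17 arrays with lmFit and eBayes, and p-values were adjusted by Benjamini-Hochberg over all of them. A call is an adjusted p of 0.05 or less. A gene is its brightest probe in Cy5. Nothing says which mice shared a cage or an extraction, and the number of arrays limits the precision. The fit was also run on simulated log2 ratios with noise drawn independently for each probe and array. Those held no slide effect and no mouse that moved many genes, so that run cannot test how the fit handles them. The alternatives were other background corrections and normalizations, Cy5 alone, the deposited log2 ratios, other filters, call rules and tests, slide and replicate blocks, and leaving out each array.

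The 8 genes and all lists were chosen with earlier results of these data known. Of each list, at most 4 genes with the largest difference among those called in HFD+1B minus HFD or in the interaction were named, and for cell type lists also the brightest gene. Outside that rule Il6, Il1b, Tnf, Csf3, Il17a, Mpo, Elane, Ngp, Ly6g, Itgax, Cdh5, and Itih2 were named after their values were seen. A result that this rule would name for Crp and one for the cholangiocyte markers are not reported here. Motifs were searched on both strands of RefSeq promoter windows (GRCm38.p6).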

Additional observations from a re-analysis of the deposited data

Results flagged for a closer look

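In each group, the gap between the most extreme mouse and its nearest neighbor was divided by the range of the group, and 15 of 142 groups examined had a value above the 95% limit for their size. Chance gives a share of about 0.05, or 7.1 of 142. HFD mouse 3 was the highest of its group for Saa1 (0.883 of the range), Saa2 (0.835), Saa3 (0.877), Lcn2 (0.933), Lrg1 (0.898), Fgb (0.936), and Serpina3n (0.895), and the lowest for Tnfrsf1b (0.847). These genes were measured in the same mouse and on the same array, so they are not separate events. HFD mouse 1 was the highest of its group for S100a9 (0.856). HFD+1B mouse 1 was the highest for Crp (0.745) and Fgb (0.728), and HFD+1B mouse 2 the lowest for Scarb1 (0.772). The 1B mouse 4 was the highest for Il6ra (0.856) and the lowest for Junb (0.873), and chow mouse 2 was the lowest for Tgfbr1 (0.876).

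Only the 8 genes and the genes named from the lists were examined for an interaction (limma, adjusted over all probes). It was called for Zfp36 (2.14), Nfkbia (0.824), Cebpb (2.11), Serpina6 (1.71), Gc (0.526), and Scarb1 (0.546). The list genes were named for a call in HFD+1B minus HFD or in this interaction, so these flags follow from that choice. Over all genes tested, 4.39% were called in the interaction. The calls of Zfp36 and Cebpb held in 13 of 13 other ways of processing, that of Serpina6 in 12, Nfkbia in 9, Scarb1 in 8, and Gc in 6. None of the 8 genes met this threshold, and 2 of them, Saa4 and Apcs, had an unadjusted p of 0.05 or less.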

How the results depend on the processing

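No difference of the 8 genes that was called changed its sign under any alternative. The number of the 8 called in HFD+1B minus HFD was 2, and it became 4 without background subtraction and with only probes above background on all 17 arrays, and 5 with a normexp offset of 16, median centring, slide as a fixed or random block, or the rule of at least 2-fold and an unadjusted p, the genes added being among Saa1, Saa2, and Saa3. In HFD minus chow (2) it was 1 with median centring, the authors' log2 ratios, no filter on dim probes, or analysis of variance with Tukey comparisons, and in Cy5 alone it stayed at 2, with Apcs lost and Lrg1 gained. In 1B minus chow (4) it was 2 in Cy5 alone, with the authors' log2 ratios, and with no filter, 5 without background subtraction, with an offset of 16, and with probes above background on all 17 arrays (Saa2 gained), and 6 with either slide block and with Tukey comparisons (Saa2 and Saa4 gained). In HFD+1B minus 1B (2) it was 0 by limma in Cy5 alone, where Lcn2 had an adjusted p of 0.0573, and 1 by the rule of at least 2-fold. In the interaction (0) it was 1 by that rule, Apcs. In Cy5 alone, the differences of Ahsg and Gc in HFD+1B minus HFD became -0.34 and -0.39, and the interaction of Gc became -0.35. The called interaction of Gc was lost in 6 other ways of processing of 13, that of Scarb1 in 5, that of Nfkbia in 4, and that of Serpina6 in 1. The cause was not tested.

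Leaving out 1 array at a time gave 0 to 6 genes in 1B minus chow, 0 to 2 in HFD minus chow, 2 to 5 in HFD+1B minus HFD, 1 to 2 in HFD+1B minus 1B, and 0 to 0 in the interaction. Replicate numbers were not taken to pair the mice, since 16 of 24 correlations between same-numbered arrays were over 0.1 (-0.13 to 0.47) and pairing would need all 24. The 6 between arrays numbered 1, which shared a slide, were 0.23 to 0.47, and the 4 between HFD and HFD+1B were 0.15 to 0.47. In the fit with the slide as a random block, arrays of the same slide had a correlation of 0.123. The main fit held no term for the slide. With a replicate block the counts were 3 in 1B minus chow, 2 in HFD minus chow, 2 in HFD+1B minus HFD, 2 in HFD+1B minus 1B, and 0 in the interaction. In 1B minus chow, Saa1 (adjusted p = 0.072) and Saa3 (0.0619) were lost under the block and Saa4 (0.0366) was gained.

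The 60-base probes measure the sum of the transcripts that bind them, and with 4 or 5 mice per group the 95% interval of a Saa difference spans over 4 log2 units. The probes of the 8 genes were all well above background, whereas Il6 was so on 4 of the 17 arrays.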
